A study of Mus musculus with 10 samples.

Results

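The potassium channel genes are the genes whose symbol in the array annotation starts with Kcn. They were read by 90 of the 22690 probe sets on the array and comprised 62 of the 12393 genes with a symbol of their own. They were measured in right ventricular RNA of 10 mice of strain 129SV, 1 array per mouse, in a study of endurance training in mice that carry 1 working copy of plakoglobin, a protein of the contacts between heart muscle cells. The trained wildtype group (n = 4) and the trained plakoglobin (+/-) group (n = 4) were 6 months old, with 2 males and 2 females in each. They swam in water of 35 °C 6 times per week, in sessions lengthened from 5 to 90 min. The untrained wildtype mouse (n = 1) and the untrained plakoglobin (+/-) mouse (n = 1) were both females of 10 months, so training and age cannot be told apart. Each untrained group is 1 mouse, without a replicate.

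Potassium channels let potassium leave the cell and so bring the membrane back to rest after each beat. In the mouse ventricle the early outward current through Kv4 channels (Kcnd2, with its accessory subunit Kcnip2) and the slower Kv1 currents (Kcna5 among them) shorten the action potential. Inward rectifiers of the Kcnj family hold the resting potential or, with sulfonylurea receptors, open when ATP falls. Channels of the 2-pore-domain family (Kcnk) carry leak current, and Kcnq1 and Kcnh2 are the pores mutated in inherited long QT syndromes.

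The signals are linear values in array units, and a probe set's signal depends on its own probes, so no gene was ranked against another. Since no detection calls came with the values, background was set from genes that the heart should not use, such as odorant and pheromone receptors, hair keratins, caseins and pregnancy hormones. A signal counted as well above background when it exceeded the 95th percentile of these probe sets on the same array. The list of 240 probe sets was built by name stems and also took in 42 of casein kinases, arginine methyltransferases and transportins, which most cells use. With them the limit lay between 2738 and 3373 on the 10 arrays, called the strict limit here. Without them it lay between 1175 and 1980, called the lower limit, a choice made after seeing the data.

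Above the strict limit on all 10 arrays were 3 of 62 channel genes, Kcnd2, Kcnq1 and Kcnk3, against 18.9% of all genes. Above the lower limit on all 10 were 7, the same 3 with Kcna7, Kcnh2, Kcnj3 and Kcnj8, against 32.2% of all genes. A further 20 passed the lower limit on some arrays and 35 on none. By role, 2 of 12 voltage-gated pore subunits passed it on all arrays, 2 of 6 Kcnq and Kcnh subunits, 2 of 13 inward rectifiers and 1 of 8 2-pore-domain subunits. None of 15 accessory subunits, 6 calcium- or sodium-activated subunits and 2 silent modifier subunits did. The brightest probe set stands for a gene here, and 20 of the 62 genes had more than 1.

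**Figure D1:**
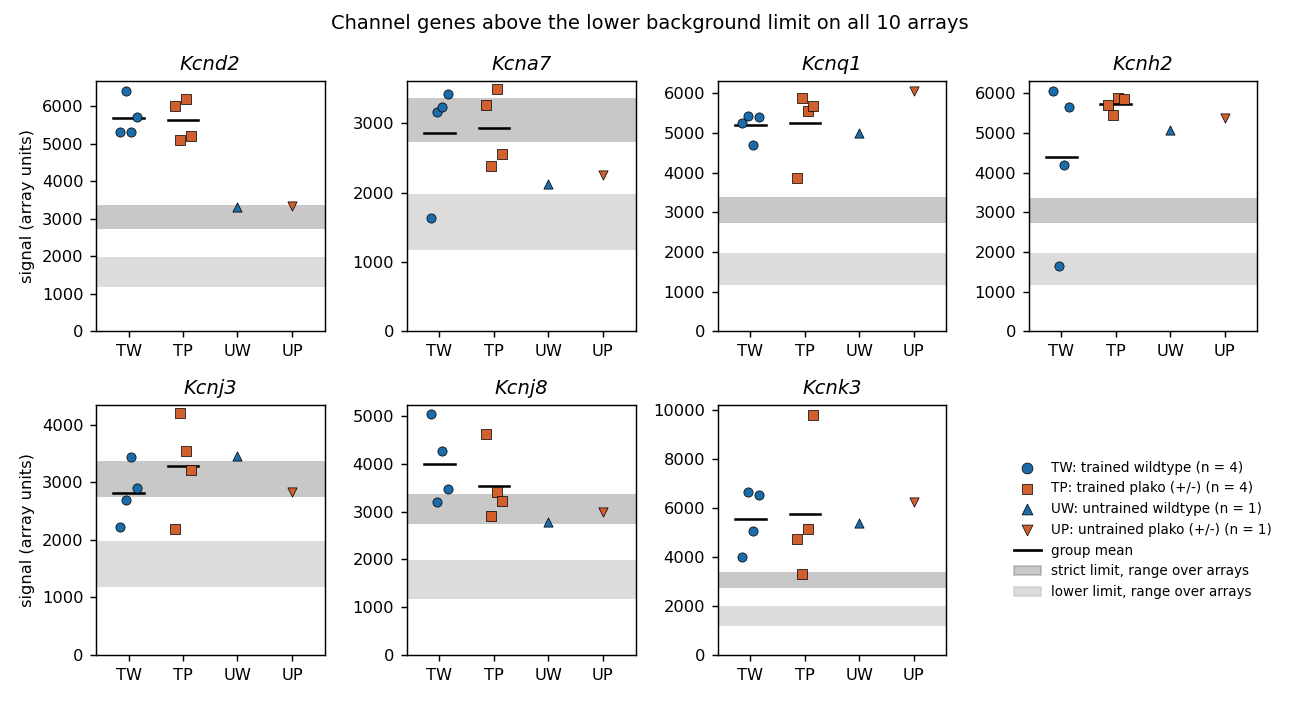
Signals in array units of the 7 channel genes above the lower background limit on all 10 arrays, by group (points are mice, lines are means of the trained groups, bands are the range of each limit over the arrays; TW and TP are the trained, UW and UP the untrained wildtype and plakoglobin (+/-) mice). Kcnd2 is the gene among them whose 8 trained mice, from 5096 to 6417, all lie above both untrained mice, and 1 trained wildtype mouse stands low at 1641 for Kcnh2.

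The 20 genes above the lower limit on some arrays were the pores Kcna2 and Kcna5, the silent modifier Kcns2, the EAG-type pores Kcnh1 and Kcnh3, the inward rectifiers Kcnj5, Kcnj11 and Kcnj14, the 2-pore-domain subunits Kcnk4 and Kcnk7, the calcium-activated pores Kcnma1, Kcnn1 and Kcnn2, and the accessory subunits Kcnab1, Kcne1, Kcne4, Kcnip2, Kcnmb1, Kcnmb2 and Kcnmb4. The 35 above it on none were Kcna1, Kcna3, Kcna4, Kcna6, Kcnc1, Kcnc4, Kcnd1 and Kcnd3 among the pores, Kcns1, Kcnh7 and Kcnq5, the inward rectifiers Kcnj1, Kcnj2, Kcnj4, Kcnj6, Kcnj9, Kcnj10, Kcnj12 and Kcnj15, the 2-pore-domain subunits Kcnk1, Kcnk2, Kcnk5, Kcnk10 and Kcnk13, the activated pores Kcnn3, Kcnn4 and Kcnu1, and the accessory subunits Kcnab2, Kcnab3, Kcne1l, Kcne2, Kcne3, Kcnip1, Kcnip3 and Kcnip4. A signal under the limit is not shown to be absent expression.

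The tissue label was checked against marker genes. Of 8 ventricular myocyte markers, 7 passed the lower limit on all arrays. Of 5 atrial markers Nppa passed it on all 10 arrays, Myl4 on 7, Bmp10 on 2, and Sln and Myl7 on none. None of the 4 skeletal muscle markers on the array passed it on any. Of 6 neuron and Schwann cell markers on the array 0 passed on all arrays, and Snap25, Stmn2 and Syt1 passed on none. In bulk RNA, fewer cells of a type and less RNA per cell cannot be told apart. Each array carries GAPDH controls for both ends of the transcript, and the signal at the 3' end divided by that at the 5' end rises where RNA is broken or copied short. This GAPDH ratio was 17.8 for trained wildtype replicate 2, 2.50 for replicate 1 of that group and 2.98 for trained plakoglobin (+/-) replicate 1. Elsewhere it lay between 0.849 and 1.02. For many of the changes named here the value without these 3 arrays is given too.

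The training comparison set the 8 trained mice against the 2 untrained mice, in a linear model with terms for genotype and sex (limma, Benjamini-Hochberg adjustment over all 13576 probe sets tested). Of the 34 channel probe sets tested, which read 29 genes, 1 passed: Kcnj14, an inward rectifier, was higher in the trained mice. Over all probe sets tested 0.626% passed, made up of 0.273% that were higher and 0.354% that were lower in trained mice. An unadjusted p under 0.05 was reached by 4 members, Kcnj14, Kcnd2, Kcnk7 and Kcnmb4, against 8.68% of all probe sets. The members split into 19 higher and 15 lower with a median log2 change of 0.02, and over all probe sets 49.8% were higher with a median of -0.00. With the 3 arrays of high GAPDH ratio left out, 22 of 35 were higher, with a median of 0.14 against 0.01, and 8 had an unadjusted p under 0.05, against 12.9% of all probe sets.

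Kcnj14 encodes Kir2.4, an inward rectifier of the same subfamily as the main ventricular one and best known from neurons. Its signals were 3170.9, 3725.5, 2068.7 and 2122.3 in trained wildtype replicates 1 to 4 and 2791.8, 3399.4, 1782.7 and 1484.2 in trained plakoglobin (+/-) replicates 1 to 4. The untrained wildtype mouse read 356.5 and the untrained plakoglobin (+/-) mouse 77.5. Every trained mouse thus lay above both untrained mice, and the 2 trained genotypes overlapped. Replicates 1 and 2 of both trained groups read 2791.8 or more, and replicates 3 and 4 of both read 2122.3 or less. How many probe sets split this way was not counted, and the source of the split was not tested. The mean was 2568 ± 818.0 in trained mice (SD, n = 8), and the log2 change was 3.47 (SE 0.44; limma, adjusted p = 0.00474; higher in 8 of 8). Both untrained signals lay under the lower limit, and 1 under the floor of 104.5 that the fit applied. Of the 8 trained arrays 6 exceeded the lower limit, and trained plakoglobin (+/-) replicates 3 and 4 did not. Measured against the lower limit the signal was 1.81-fold higher as an average over all 8 trained mice, which does not hold for each mouse. Against the strict limit no fold can be given. With a floor at the 25th percentile the log2 change was 2.59 (adjusted p = 0.00539). The call rests on the untrained plakoglobin (+/-) mouse: without it the log2 change was 2.72 (adjusted p = 0.106), and without the untrained wildtype mouse 4.21 (adjusted p = 0.0136). Without the 3 arrays of high GAPDH ratio it was 3.22 (adjusted p = 0.00578).

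Some marker signals also differed between the same mice. The summed signal of the 6 neuron and Schwann cell markers on the array lay between 5371 and 7629 in the trained mice, against 3997 and 3393 in the untrained wildtype and plakoglobin (+/-) mouse. Taken alone, each of these 6 markers overlapped between trained and untrained mice. Snap25, Stmn2 and Syt1 were under the lower limit throughout, while Prph exceeded it on 1 array, Th on 4 and Sox10 on 7. The summed signal of the 5 atrial markers lay between 21796 and 38470 in trained and at 8266 and 6478 in untrained mice. Within it Nppa, the natriuretic peptide, ranged from 18636 to 34501 and was 4350 and 3966 in the same order, and Sln and Myl7 were under the lower limit throughout. The other atrial markers, Myl4 and Bmp10, overlapped between trained and untrained mice. Of all these markers, 1 of the 3 atrial ones tested, Nppa, passed the training test and none of the 4 neuronal ones tested did. Their part in the Kcnj14 result was not tested.

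Kcnd2 and Kcnk7 also lay above both untrained mice in all 8 trained mice, and neither passed the test. Kcnd2 encodes Kv4.2, a pore of the fast transient outward current. Its brightest probe set read 5311.6, 6416.8, 5318.1 and 5724.7 in trained wildtype replicates 1 to 4 and 6007.7, 5095.5, 6201.2 and 5216.1 in trained plakoglobin (+/-) replicates 1 to 4. The untrained mice read 3328.9 (wildtype) and 3347.4 (plakoglobin (+/-)), close to each other and below all trained mice. The ratio of the trained to the untrained mean was 1.70, and the log2 change of 0.81 (SE 0.19) had an adjusted p of 0.113 (limma). Leaving out any 1 of the 10 mice gave log2 changes between 0.77 and 0.88.

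Kcnk7 encodes a 2-pore-domain subunit for which no current of its own is known. It read between 666.1 and 1695.7 in trained mice, with a median of 1018, against 190.5 in the untrained wildtype and 298.0 in the untrained plakoglobin (+/-) mouse. The log2 change was 2.10 (SE 0.50; limma, adjusted p = 0.126). In the fit without a sex term it passed (log2 change 2.20, adjusted p = 0.0443). The signal exceeded the lower limit on 1 trained array and on neither untrained one, so these fitted changes are of signals not above background in the untrained mice, and no bound of the fold could be given. With the 3 arrays of high GAPDH ratio left out its mean fell under the filter and it was not tested.

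These 3 were the only tested channel probe sets whose trained and untrained mice did not overlap, 3 of 34 and all higher in trained mice, against 9.24% over all tested probe sets and 4.63% that were higher. That share is near the background and is no result about the channel genes as a group.

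**Figure D2:**
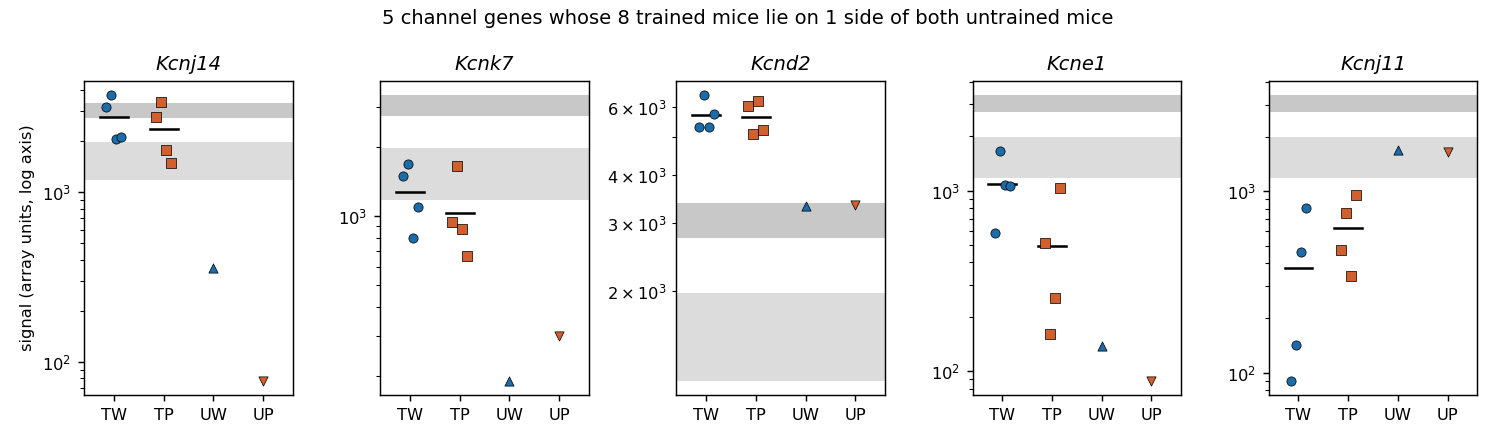
Signals in array units (log axis) of Kcnj14, Kcnk7, Kcnd2, Kcne1 and Kcnj11 by group, points and bands as in the plot of channel genes above background. Kcnj14, Kcnk7, Kcnd2 and Kcne1 are higher in all 8 trained mice and Kcnj11 is lower in all 8; Kcnj14 passed the test, Kcnk7 and Kcnd2 did not, and Kcne1 and Kcnj11 were too dim to be tested in the fit reported.

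**Figure D3:**
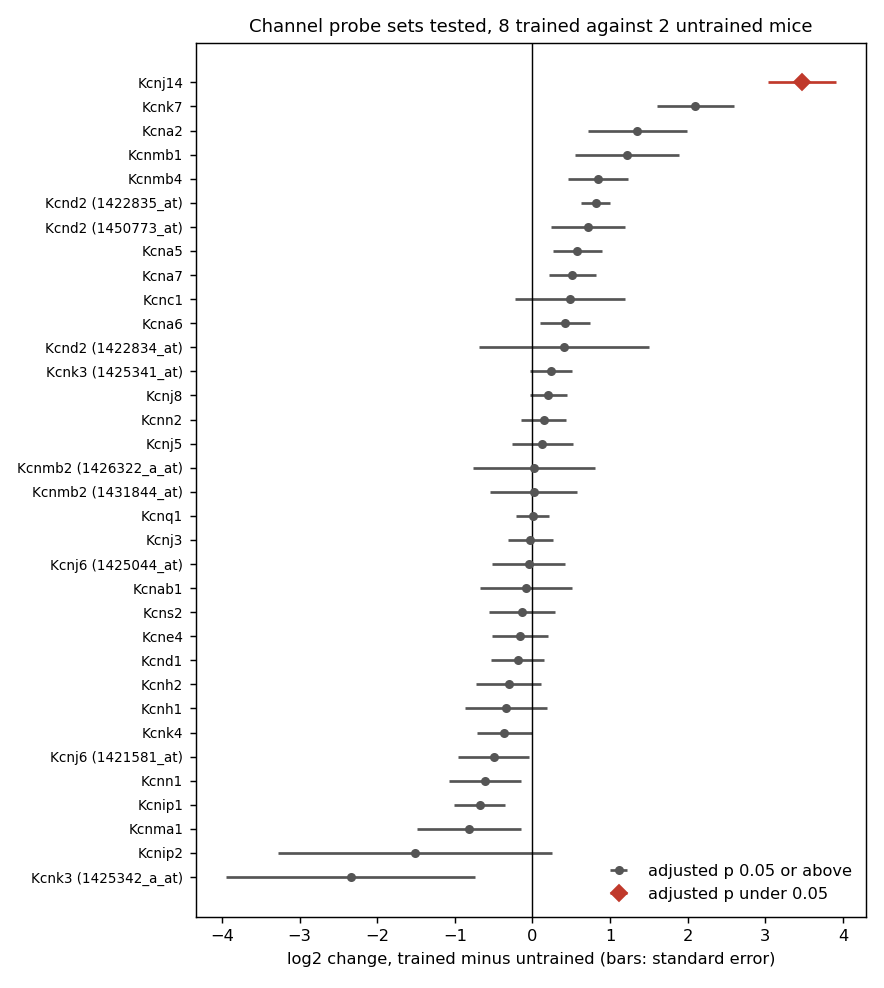
Log2 change between trained and untrained mice of the 34 channel probe sets tested, with standard errors, in order of size. The diamond marks Kcnj14 at 3.47, the probe set with an adjusted p under 0.05; the other 33 do not pass, and the widest bars belong to Kcnip2 and to a second Kcnk3 probe set.

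The promoter windows of Kcnd2, of its partner Kcnip2 and of Kcnk7 are shown since Kcnd2 and Kcnk7 had signals beyond both untrained mice while Kcnip2 did not. RefSeq promoter sequences (GRCm38.p6) were at hand for 50 of the 62 genes, and Kcnj14 was not among them. Each window is the 250 bases before the annotated start, 5′ to 3′ on the gene's strand, at chr6:21215096-21215345 (plus strand) for Kcnd2, chr19:45816064-45816313 (minus strand) for Kcnip2 and chr19:5704221-5704470 (plus strand) for Kcnk7. Capitals mark the GC box letters GGGCGG, read on both strands.
Kcnd2: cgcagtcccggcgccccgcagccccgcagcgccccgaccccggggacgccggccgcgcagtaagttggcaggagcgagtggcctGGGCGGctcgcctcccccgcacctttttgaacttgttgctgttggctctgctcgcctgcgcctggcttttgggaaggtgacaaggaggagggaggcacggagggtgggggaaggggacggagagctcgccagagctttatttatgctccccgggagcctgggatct
Kcnip2: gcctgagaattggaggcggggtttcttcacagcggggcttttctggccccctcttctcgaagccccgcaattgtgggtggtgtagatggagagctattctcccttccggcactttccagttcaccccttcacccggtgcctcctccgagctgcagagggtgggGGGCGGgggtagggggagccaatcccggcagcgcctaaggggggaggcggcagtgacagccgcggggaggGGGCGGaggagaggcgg
Kcnk7: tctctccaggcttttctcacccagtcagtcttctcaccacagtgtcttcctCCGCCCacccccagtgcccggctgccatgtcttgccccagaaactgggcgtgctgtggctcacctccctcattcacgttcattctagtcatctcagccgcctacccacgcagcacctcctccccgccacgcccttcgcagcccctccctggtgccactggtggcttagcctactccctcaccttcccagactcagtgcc
The GC box letters occurred 1 time in the Kcnd2 window, 2 times in that of Kcnip2 and 1 time, on the other strand, in that of Kcnk7. Of 32851 promoter windows of that length 32.7% held them. The TATA letters TATAAA, on either strand, occurred in none of the 3 and in 12.4% of all windows. The E-box letters CANNTG occurred 1 time in the Kcnip2 window and not in the other 2, against 66.2% of all windows. The GC content was 68.8%, 66.8% and 62.4%. These matches describe the letters and not binding.

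The other voltage-gated subunits showed no call by training. Kcna7, a Kv1 pore found in heart and skeletal muscle, read 2864 ± 826.4 in trained wildtype and 2928 ± 540.6 in trained plakoglobin (+/-) mice (SD, n = 4 each), against 2130.3 and 2259.3 in the untrained wildtype and plakoglobin (+/-) mouse. Its log2 change was 0.52 (SE 0.30), and trained wildtype replicate 1, at 1635.7, lay below both untrained mice. Kcna5, the pore of the ultrarapid delayed rectifier, read 1805 ± 397.7 in trained wildtype and 1526 ± 376.2 in trained plakoglobin (+/-) mice (SD, n = 4 each), against 1395.2 and 832.6. Its log2 change was 0.58 (SE 0.32), the groups overlapped, and it exceeded the lower limit on 6 of 10 arrays. Kcna4 and Kcnd3, further pores of the transient outward current, exceeded the lower limit on no array, with signals up to 1141 and 922.6.

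Of the long QT pores, Kcnq1 read 5196 ± 348.0 in trained wildtype and 5244 ± 927.4 in trained plakoglobin (+/-) mice (SD, n = 4 each) and 4992.6 and 6061.3 in the untrained wildtype and plakoglobin (+/-) mouse. Its groups overlapped in every comparison. Kcnh2, the pore of the rapid delayed rectifier, read 4392 ± 2000 in trained wildtype and 5727 ± 201.8 in trained plakoglobin (+/-) mice (SD, n = 4 each), and 5085.1 and 5392.2 in the untrained mice. Trained wildtype replicate 2, the array of GAPDH ratio 17.8, read 1641.2 while the other 9 mice read between 4206 and 6069. With it the training log2 change was -0.31 (SE 0.42) and without it 0.13. Kcne1, which slows Kcnq1 channels, read between 161.0 and 1665.2 in trained mice and 138.0 and 88.5 in the untrained mice. It exceeded the lower limit on 1 array.

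Among inward rectifiers, Kcnj8 (Kir6.1) and Kcnj11 (Kir6.2) are pores of ATP-sensitive channels, the first of them abundant in smooth muscle and pericytes. Kcnj8 read 3992 ± 834.1 in trained wildtype and 3541 ± 752.5 in trained plakoglobin (+/-) mice (SD, n = 4 each), against 2772.8 and 2992.4 in the untrained wildtype and plakoglobin (+/-) mouse. Its log2 change was 0.20 (SE 0.24), and trained plakoglobin (+/-) replicate 2, at 2915.8, lay between the untrained mice. The summed smooth muscle and pericyte markers lay between 52248 and 95276 in trained mice and at 73257 and 75063 in the untrained mice.

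Kcnj11 went the other way. It read 90.5, 142.0, 464.6 and 805.1 in trained wildtype replicates 1 to 4, 473.1, 755.6, 339.5 and 947.1 in trained plakoglobin (+/-) replicates 1 to 4, and 1678.2 and 1636.2 in the untrained wildtype and plakoglobin (+/-) mouse. The untrained mice were thus the highest, and they were the 2 that exceeded the lower limit. Its mean fell under the filter on dim probe sets. In a fit without that filter the log2 change was -1.92 (SE 0.89; limma, adjusted p = 0.621).

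Kcnj3, a pore of the acetylcholine-activated channel and better known from atria, read 2815 ± 502.9 in trained wildtype and 3288 ± 839.0 in trained plakoglobin (+/-) mice (SD, n = 4 each). The untrained mice, at 3453.4 and 2834.9, lay within the range of the trained mice. The 3 arrays of high GAPDH ratio, at 2187 to 2696, were its lowest, and without them the training log2 change was 0.02 (SE 0.21), against -0.03 (SE 0.29) with them. Its partner Kcnj5 read between 586.1 and 1567.2 in trained mice and exceeded the lower limit on 1 array. Kcnj2 and Kcnj12, the pores of the main ventricular inward rectifier current, exceeded the lower limit on none, each read by 1 probe set. Kcnj2 read at most 556.6 and Kcnj12 at most 944.1. These values say only that their probe sets did not stand above background.

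Kcnk3, the leak channel TASK-1, read 5543 ± 1263 in trained wildtype and 5734 ± 2802 in trained plakoglobin (+/-) mice (SD, n = 4 each). The untrained wildtype and plakoglobin (+/-) mouse, at 5364.1 and 6229.8, lay within the trained range of 3307.3 to 9768.2. These values are of its brightest probe set, with a log2 change of 0.24 (SE 0.28). The other Kcnk3 probe sets, given below, had negative changes and did not pass. Kcnk2, the stretch-sensitive TREK-1, read between 157.5 and 850.6 in trained mice and exceeded the lower limit on no array. Of the calcium-activated channels, Kcnn2 (SK2) read 1205 ± 209.1 in trained wildtype and 1349 ± 204.4 in trained plakoglobin (+/-) mice (SD, n = 4 each). The untrained mice read 1019.1 and 1428.2, and 1 array exceeded the lower limit.

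The rest of the tested members were near the background limit and none passed the training test. Kcna2, a Kv1 pore, read 327.5 to 1786 in trained mice with a median of 1074, and 311.5 and 778.1 in the untrained wildtype and plakoglobin (+/-) mouse, a log2 change of 1.35 (SE 0.64). Kcnmb4, a beta subunit of the large calcium-activated channel, read 802.1 to 1834 in trained mice, and 881.6 and 615.1, a log2 change of 0.85 (SE 0.39; limma, adjusted p = 0.575). Kcnma1, the pore of that channel, read 190.0 to 1841 in trained mice, and 931.6 and 1513.7, a log2 change of -0.81 (SE 0.67), or -0.20 (SE 0.44) without the 3 arrays of high GAPDH ratio. In all 3 genes the trained and untrained mice overlapped. Kcnn1, a small-conductance calcium-activated pore, read 666.1 to 2262 in trained mice and 1848.2 and 2133.3 in the untrained mice, a log2 change of -0.61 (SE 0.46), or -0.28 (SE 0.36) without those arrays, and exceeded the lower limit on 5 arrays. Kcnip1, a relative of Kcnip2, had -0.68 (SE 0.33) and exceeded it on none. The changes over all 10 mice of Kcna6, Kcnc1, Kcnh1, Kcnj6, Kcnmb2 and Kcns2 lay between -0.50 and 0.48. Without the 3 arrays they lay between -0.67 and 0.445. Among these Kcnh1 turned from -0.34 (SE 0.53) to 0.15 (SE 0.34) and Kcns2 from -0.14 (SE 0.42) to 0.14 (SE 0.34).

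The 56 channel probe sets left out of the test for low signal held 7 whose trained and untrained mice did not overlap, and over all probe sets not tested the share was 6.35%. Besides Kcne1 and Kcnj11 they read Kcne2 and Kcns1, higher in trained mice, and Kcnab1, Kcnip4 and Kcnk5, lower in trained mice. The Kcnk5 probe set read at most 70.0, under the floor of 104.5 on every array. Kcns1 read 65.5 to 237.0 in trained mice, and 57.5 and 47.0 in the untrained wildtype and plakoglobin (+/-) mouse, both under the floor. In the fit without a filter Kcne1 had a log2 change of 2.78 (SE 0.71; limma, adjusted p = 0.263) and Kcne2, another accessory subunit, 1.68 (SE 0.46; adjusted p = 0.303). In both the untrained plakoglobin (+/-) mouse was under the floor, so these sizes depend on it. A second probe set of Kcnab1, a beta subunit of Kv1 channels, had -2.24 (SE 0.62; adjusted p = 0.313), while its brightest had -0.09 (SE 0.60) in the fit reported.

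Probe sets of 1 gene disagreed on the arrays of high GAPDH ratio. Kcnip2 encodes KChIP2, the subunit that brings Kv4 channels to the cell surface. Its brightest probe set read 935.1, 49.0 and 103.0 in trained wildtype replicates 1 and 2 and trained plakoglobin (+/-) replicate 1, the 3 arrays of high ratio, and between 3815 and 6642 on the other 7. The 3 arrays did not overlap with the rest, and they are all of trained mice. Over all 10 mice its training log2 change was -1.52 (SE 1.76), and without the 3 arrays -0.05 (SE 0.25; limma, adjusted p = 0.957). Its other probe set read between 691.6 and 813.1 on the 3 arrays and between 116.0 and 1158 on the rest, always under the lower limit.

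The dimmest of 3 Kcnd2 probe sets read 166.5 for trained wildtype replicate 1 and 107.5 for trained plakoglobin (+/-) replicate 1 but 1816.2 in trained wildtype replicate 2, against 1289 to 2259 on the other 7 arrays. The Kcnd2 probe set of middle signal read 1126.6, 1136.1 and 3102.4 on these arrays in the same order, and 1782 to 3960 on the other 7. Both thus set the same pair of males apart, and the brightest Kcnd2 probe set, at 5312 to 6417 on the 3 arrays, did not. Over all 10 mice the Kcnd2 log2 change by training was 0.72 (SE 0.48; limma, adjusted p = 0.783) for the middle probe set and 0.40 (SE 1.10; adjusted p = 0.968) for the dimmest, with trained and untrained mice overlapping on both. Without the 3 arrays the Kcnd2 log2 changes by training were 0.78 (SE 0.18) for the brightest, 0.71 (SE 0.22) for the middle and 0.42 (SE 0.26) for the dimmest, all higher in trained mice and none past the test, with adjusted p (limma) of 0.0649, 0.178 and 0.546.

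For Kcnk3, the second of 3 probe sets read between 50.5 and 97.5 on the 3 arrays and between 208.5 and 4544 on the rest, while the brightest probe set read between 3993 and 6625 and between 3307 and 9768. The training log2 change of the second probe set was -2.34 (SE 1.60) with the 3 arrays and -1.43 (SE 0.89) without them. The third, above the lower limit on 1 array, was too dim for the fit reported. Its change was -1.28 (SE 0.89) in the fit without a filter and -0.96 (SE 0.65) without the 3 arrays. The part of RNA quality in these differences was not tested beyond leaving the arrays out.

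**Figure D4:**
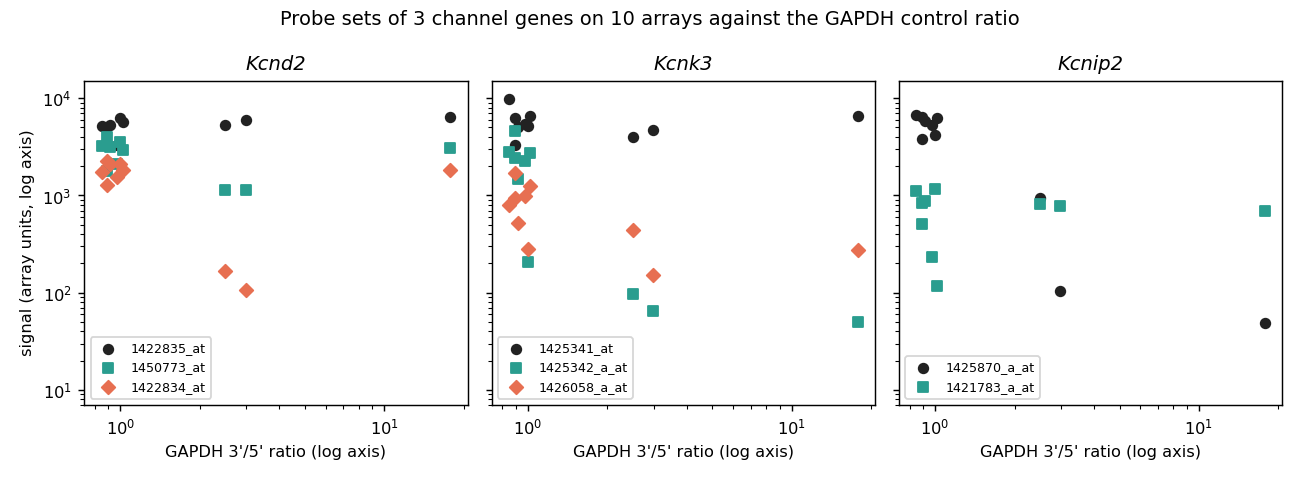
Signals in array units (log axis) of the probe sets of Kcnd2, Kcnk3 and Kcnip2 on the 10 arrays against the 3'/5' ratio of the GAPDH control (log axis). The brightest Kcnd2 and Kcnk3 probe sets (circles) stay at 3993 or more on the 3 arrays with a ratio above 2, while the brightest of Kcnip2 reads 935.1 or less on them and the second of Kcnk3 (squares) 97.5 or less.

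The genotype comparison asked whether the channel genes differ between trained plakoglobin (+/-) and trained wildtype mice. None of the 34 tested probe sets passed (limma), and 0% of all probe sets did. No member reached an unadjusted p under 0.05 (lowest 0.0657), against 2.01% of all probe sets. Of the members 24 were higher in plakoglobin (+/-) mice with a median log2 difference of 0.14, against 51.9% and 0.01 over all probe sets. With the same 3 arrays left out it was 22 of 35, with a median of 0.11. Among the 7 genes above the lower limit on all arrays the differences ran from -0.17 (SE 0.20) for Kcnj8 to 0.55 (SE 0.36) for Kcnh2, and that of Kcnd2 was -0.02 (SE 0.16). The Kcnh2 difference rests on trained wildtype replicate 2 and was 0.11 without it. No tested member had 4 plakoglobin (+/-) mice beyond 4 wildtype mice, while 1.60% of all tested probe sets did.

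A dim probe set of Kcnk1, the 2-pore-domain channel TWIK-1, did so, 1 of the 56 channel probe sets not tested. Over all probe sets not tested the share was 1.96%. It read 84.0, 88.0, 74.0 and 39.0 in trained wildtype replicates 1 to 4 and 273.0, 561.6, 718.1 and 298.5 in trained plakoglobin (+/-) replicates 1 to 4. The untrained wildtype mouse read 89.5 and the untrained plakoglobin (+/-) mouse 638.6. All 5 plakoglobin (+/-) mice lay above all 5 wildtype mice, with every signal under the lower limit. How often all probe sets show this order of 5 against 5 was not counted. The 4 trained wildtype signals were all under the floor of 104.5, so a fitted difference would measure only the distance to that floor, and none is given. In the fit without a filter this probe set did not pass (limma, adjusted p = 0.904). The brighter Kcnk1 probe set, also under the limit, read 408.2 ± 286.7 in trained wildtype and 523.2 ± 422.1 in trained plakoglobin (+/-) mice (SD, n = 4 each) and overlapped.

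By the genotype by training term, with 1 mouse in each untrained group assumed to vary like the rest, 0 of 34 passed (limma; lowest adjusted p 0.521) and 1 had an unadjusted p under 0.05, against 0% and 3.20% over all probe sets. This 1 was Kcnmb1, the beta subunit of the large calcium-activated channel in smooth muscle. It read 138.5 in the untrained wildtype and 1775.7 in the untrained plakoglobin (+/-) mouse, and between 970.1 and 1530.7 in all trained mice. The untrained wildtype mouse thus lay below all trained mice and the untrained plakoglobin (+/-) mouse above them. This probe set exceeded the lower limit on 1 array, and its training log2 change was 1.22 (SE 0.67). The dimmer Kcnmb1 probe set, not tested and always under the lower limit, read 463.1 in the untrained wildtype and 485.1 in the untrained plakoglobin (+/-) mouse.

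Males and females were compared within the 8 trained mice, in the same fit as genotype. Of the 34 channel probe sets 0 passed (limma; lowest adjusted p 0.484), against 0.0516% of all probe sets, and 4 had an unadjusted p under 0.05, against 8.82%. In these 4 the sexes did not overlap, while 5.89% of all tested probe sets had no overlap. Kcne4, an accessory subunit that inhibits Kv1 and Kcnq1 channels, read 1617 ± 320.1 in males and 736.6 ± 239.9 in females (SD, n = 4 each), a log2 difference of 1.17 (SE 0.30). Kcnk3 read 4261 ± 770.1 in males and 7016 ± 1954 in females (SD, n = 4 each) on its brightest probe set, a log2 difference of -0.70 (SE 0.24). On its other probe sets the sexes overlapped. These had -0.52 (SE 1.42) in the same fit and, for the dimmest, -0.30 (SE 0.76) in the fit without a filter. The remaining 2 of the 4 were Kcnk4 at 0.80 and Kcnd1 at 0.70, both higher in males. Kcnk4 exceeded the lower limit on 2 arrays, Kcne4 on 2 and Kcnd1 on none. Among the dim probe sets not tested, Kcnc4 and Kcnj15 also had no overlap between the sexes, 2 of 56, against 2.94% of all probe sets not tested. Of the 3 arrays of high GAPDH ratio 2 are of males and 1 of a female. By the genotype by sex term 0 of 34 passed (limma), and 3 had an unadjusted p under 0.05, against 0% and 2.66% over all probe sets. These were Kcnh1, Kcnn1 and Kcns2, all with a negative term. Of the 34 terms 7 were positive and 27 negative with a median of -0.33, while 46.8% were positive over all probe sets with a median of -0.04. With the 3 arrays of high GAPDH ratio left out, 17 of 35 were positive, with a median of -0.05, and 0 had an unadjusted p under 0.05, against 3.93%.

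Partners of the channels were taken from a list of 23 genes, of which 17 were on the array and 16 were tested through 22 probe sets. By training 0 rose and 0 fell past the test (limma; lowest adjusted p 0.0904), against 0.626% of all probe sets tested. An unadjusted p under 0.05 was reached by 4 of the 22, against 8.68%. On 3 of the 22 the trained and untrained mice did not overlap, against 9.24% over all tested probe sets. Of the 22, 7 were higher and 15 lower with a median log2 change of -0.08, while 49.8% of all probe sets were higher. Irx3, a transcription factor of the ventricular conduction system, read between 2174 and 4262 in trained mice and 6881.8 and 5761.2 in the untrained wildtype and plakoglobin (+/-) mouse. The trained mice all lay below both, with a log2 change of -1.30 (SE 0.28). With the 3 arrays of high GAPDH ratio left out it passed, at -1.19 (SE 0.21; limma, adjusted p = 0.0151). Dpp6, a subunit that speeds Kv4 channels, read between 1135 and 2717 in trained mice and 1005.1 and 1022.1 in the untrained mice, with a log2 change of 1.07 (SE 0.34; adjusted p = 0.324). It too passed with those arrays left out, at 1.34 (SE 0.26; limma, adjusted p = 0.0239). Dpp6 exceeded the lower limit on 4 arrays, and both untrained signals lay under it. More of all probe sets also passed with those arrays left out, as counted in the last section.

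Atp1b2, a sodium pump subunit, had -1.89 (SE 0.59) on 1 probe set and -0.27 (SE 0.33) on the other, and its groups overlapped on both. Without the 3 arrays these were -2.25 (SE 0.55) and -0.11 (SE 0.24). Slc12a7, a potassium chloride cotransporter, had -0.76 (SE 0.77) on 1 probe set and -0.14 (SE 0.28) on the brighter one. The dimmer probe set read 758.6 to 1313 on the 3 arrays of high GAPDH ratio and 4128 to 5713 on the other 7, with no overlap. Without the 3 arrays the changes were -0.10 (SE 0.19) and 0.09 (SE 0.19). Abcc9, the sulfonylurea receptor of heart and smooth muscle, read 3397 to 11563 in trained mice and 10335.2 and 9617.2 in the untrained mice, with a log2 change of -0.09 (SE 0.41), or -0.22 (SE 0.17) without the 3 arrays.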

How the data were processed

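Total RNA of the right ventricle was labelled as biotin-bearing cRNA and hybridised to Affymetrix arrays, per the labels' protocols. The deposited values are intensity signals that the authors made with MAS5 version 5.0, per the submitters' processing notes; their mean without the outer 2% at each end was 2501.3 to 2501.6 on every array, so the deposited signals share 1 scale. Cell files and detection calls were not used here. Signals under 104.5 (the 10th percentile) were set to it before taking log2. Of 22690 probe sets, 64 were controls; the test took the 13576 whose mean log2 signal reached the 40th percentile. Models were fitted with limma 3.58.1 (eBayes with trend) in R 4.3.3, two-sided, with a threshold of 0.05 on adjusted p, and tested on simulated data. Replicate numbers follow accession order and only name a mouse. Of the probe sets, 20393 carried 1 symbol and 691 several, none of the latter with a Kcn symbol; all 62 Kcn genes matched a RefSeq symbol. The members, lists and tests were chosen with earlier results of these data known. Named with values are members past the test, the listed cardiac repolarisation genes on the array, members above background on all arrays, the largest changes among these, and partner genes by size of change; Kcnk7, Kcnk1, Kcnmb1, Kcne2, Kcne4, Kcnk4, Kcnd1, Kcnab1, Kcnip4, Kcnk5, Kcns1, Kcnc4, Kcnj15, Kcna2, Kcnmb4, Kcnma1, Kcnn1 and Kcnip1, and of the partners Abcc9, were chosen after their values were seen.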

Additional observations from a re-analysis of the deposited data

Results flagged for a closer look

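This check covered 26 of the probe sets named here, not all of them, in 2 groups of 4 trained mice each. In 5 of the 52 groups checked 1 mouse stood apart from the other 3 by Dixon's test, where chance gives about 2.6. Trained wildtype replicate 1 was low for Kcna7 at 1635.7, against 3159.4 in the next mouse. It was also low for 2 Kcnd2 probe sets, at 1126.6 against 2905.9 and at 166.5 against 1816.2. Trained plakoglobin (+/-) replicate 1 was low for Kcnq1 at 3866.0, against 5562.1. Both are arrays with a GAPDH ratio above 2. Trained wildtype replicate 3 was high for Kcnj2 at 556.6, against 42.5, with all 4 mice under the lower background limit.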

How the results depend on the processing

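The precision is limited by 10 arrays, 2 of them untrained, and by signals near background. The number of channel genes above background on all arrays was 3 by the strict limit. It was 5 at the 90th percentile of the silent genes, 0 at the 99th, 11 at the 40th percentile of all probe sets, 1 with the median of a gene's probe sets, 5 without the 3 arrays of high GAPDH ratio and 7 without the casein kinase, methyltransferase and transportin genes. It was again 3 with quantile normalization and at the 99th percentile without those genes (leaving them out was chosen after seeing the data), and 3 to 4 with each mouse left out.

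Kcnj14 passed under all 12 other settings, with adjusted p (limma) from 0.00134 to 0.0358 and log2 changes from 2.59 to 3.68. The number of channel probe sets that passed by training was 2 with no sex term and 0 to 1 with each mouse left out. Over all probe sets 85 passed, against 226 without the 3 arrays and 10 to 89 with each mouse left out (10 without the untrained plakoglobin (+/-) and 34 without the untrained wildtype mouse). By genotype, sex and both interaction terms the number of channel probe sets that passed was 0 under every setting that could be fitted; without an untrained mouse the genotype by training term could not be fitted.

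Among the changes followed through the settings, the directions that turned, none past the test, were as follows. Kcnh2 by training was 0.12 without the 3 arrays, 0.0282 with the GAPDH ratio as a covariate and -0.56 to 0.13 with each mouse left out. Kcnh2 by sex was -0.24 without the 3 arrays and -0.11 to 0.60 with each mouse left out. Kcnip2 by training was 0.34 with the covariate and -2.20 to 0.0624 with each mouse left out. Kcnk3 by training was -0.11 with no sex term. Kcnd2 by genotype was 0.0403 with the covariate and -0.0794 to 0.048 with each mouse left out. The cause was not tested. No paired analysis was possible because the labels pair no mice across the groups.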
